A study of Mus musculus with 12 samples.

Results

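The core spliceosome genes described here were those named by the splicing clusters of Sf1, Bcas2, Cdc5l, Plrg1, Aqr and of every gene whose symbol starts with Snrp, Snrnp, Sf3a, Sf3b, Prpf (Prpf4b left out), U2af, Lsm, Luc7l, Cwc, Sart, Isy1 or Syf2. A splicing cluster is a group of introns that share splice sites, and the share of a cluster's split reads that falls on 1 intron is its PSI, so that the PSI values of a cluster sum to 1. The rule found 88 of 7263 tested clusters, which held 240 of 20437 introns and named 47 of 4273 genes. Of 73 protein-coding symbols of the GENCODE vM21 annotation that meet it, 26 had no tested cluster, among them Snrnp200, Prpf6, Sart1 and Snrpd2 (and Lsmem1, which shares only its first letters with the LSm genes). Prpf40b and Snrpg had a cluster that was not tested.

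The dTAG group was 6 libraries of female 129S x Cast mouse embryonic stem cells (mESCs), 3 from each of the clones C3 and H5, treated with dTAG-13 for 3 h. The Ctrl group was 6 libraries of the same clones without dTAG-13. In both groups both clones carried METTL3, the catalytic subunit of the m6A RNA methyltransferase, with a C-terminal FKBP12F36V degron, the tag through which dTAG-13 sends a protein to degradation, and a doxycycline-inducible Xist. Cells grew on mouse fibroblast feeders, and RNA was labelled with 4-thiouridine (4sU) for 30 min, so newly made transcripts were read. The tables held 1 PSI per intron and condition over the 6 libraries of each group. They held no value per library, no read count and no expression level, so PSI values carry no SD, depth is unknown, and the loss of METTL3 could not be checked. Of 12 mESC markers 9 had a tested cluster (Nanog, Zfp42 and Esrrb among them), against 1 of 8 fibroblast markers (Fn1), which shows only where spliced reads were counted.

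The spliceosome removes introns through small nuclear ribonucleoproteins (snRNPs). U1 binds the 5′ splice site, and SF1 and the U2AF heterodimer bind the branch site and 3′ splice site before U2 with SF3A and SF3B takes over. The U4/U6.U5 tri-snRNP then joins, and the Prp19 complex and step factors carry the particle through catalysis. A ring of Sm proteins holds U1, U2, U4 and U5, and an LSm ring holds U6. Many genes of this machinery carry exons or splice sites that bring a premature stop codon and send the transcript to nonsense-mediated decay, a known way for splicing factors to limit their own level.

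The sequences of splice sites from selected clusters are given first, from the GRCm38 genome, 5′ to 3′ on the transcribed strand. The bases at the intron ends (GT of a 5′ splice site, AG of a 3′ splice site) are in capitals. The sequences belong to the 4 clusters with a likelihood-ratio p of at most 0.05 and to Sf1. The Sf1 cluster held the largest difference between neighbouring 5′ splice sites.
Prpf3 3′ splice sites, chr3:95835462-95835549, minus strand: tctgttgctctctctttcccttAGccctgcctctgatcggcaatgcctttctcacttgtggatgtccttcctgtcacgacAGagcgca
Prpf4 5′ splice sites, chr4:62422246-62422308, plus strand: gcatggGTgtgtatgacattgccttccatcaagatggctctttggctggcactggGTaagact
Prpf8 3′ splice sites, chr11:75506295-75506335, plus strand: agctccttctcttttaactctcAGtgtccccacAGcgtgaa
Lsm6 exon, 3′ splice site before it, chr8:78820080-78820107, minus strand: gcctaacttccttattttgcAGatgagc
Lsm6 exon, 5′ splice site after it, chr8:78819979-78819992, minus strand: tcccaaGTgagtac
Sf1 5′ splice sites, chr19:6374278-6374295, plus strand: caatggGTaaGTaagtgt

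Intron choice in core spliceosome genes differed little between dTAG and Ctrl cells. A likelihood-ratio p of at most 0.05 was found for 4 of 88 clusters (4.55%), in Prpf3, Prpf4, Prpf8 and Lsm6, beside 6.84% of all tested clusters. Counted by gene, these were 4 of 47 (8.51%), beside 11.2% of all genes with a tested cluster. After Benjamini-Hochberg adjustment over the 7263 tested clusters, the LeafCutter likelihood-ratio test gave 0 member clusters with an adjusted p under 0.2 (1.58% of all tested clusters) and 0 under 0.05 (0.702%), and the smallest adjusted p of a member was 0.389. The p-values are likelihood-ratio p-values from the chi-square distribution, an approximation, since no exact test could be run without a value per library. They set the condition against the spread over the 12 libraries, whose replicates are not stated to be separate cultures, and whether the fit took in the clone is not given in the sources used here.

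Differences were small in most clusters. The largest absolute deltaPSI (dTAG minus Ctrl) of a cluster had a median of 0.0141 over the 88 clusters, with a range of 0.000265 to 0.137, beside a median of 0.0214 over all tested clusters. It was under 0.02 in 60 of the 88 (68.2%), beside 47.7% of all tested clusters, and reached 0.1 in 1 of the 88 (1.14%), beside 4.63%. The members also held more clusters in which 1 intron dominated: the most used intron had a Ctrl PSI of at least 0.9 in 51.1% of them, beside 29.1% of all tested clusters. Among clusters with such a dominant intron the median was 0.00911 for members, beside 0.00851 for all tested clusters. Among the others it was 0.0202, beside 0.0291. The part of dominant introns in the overall difference was not tested.

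**Figure D1:**
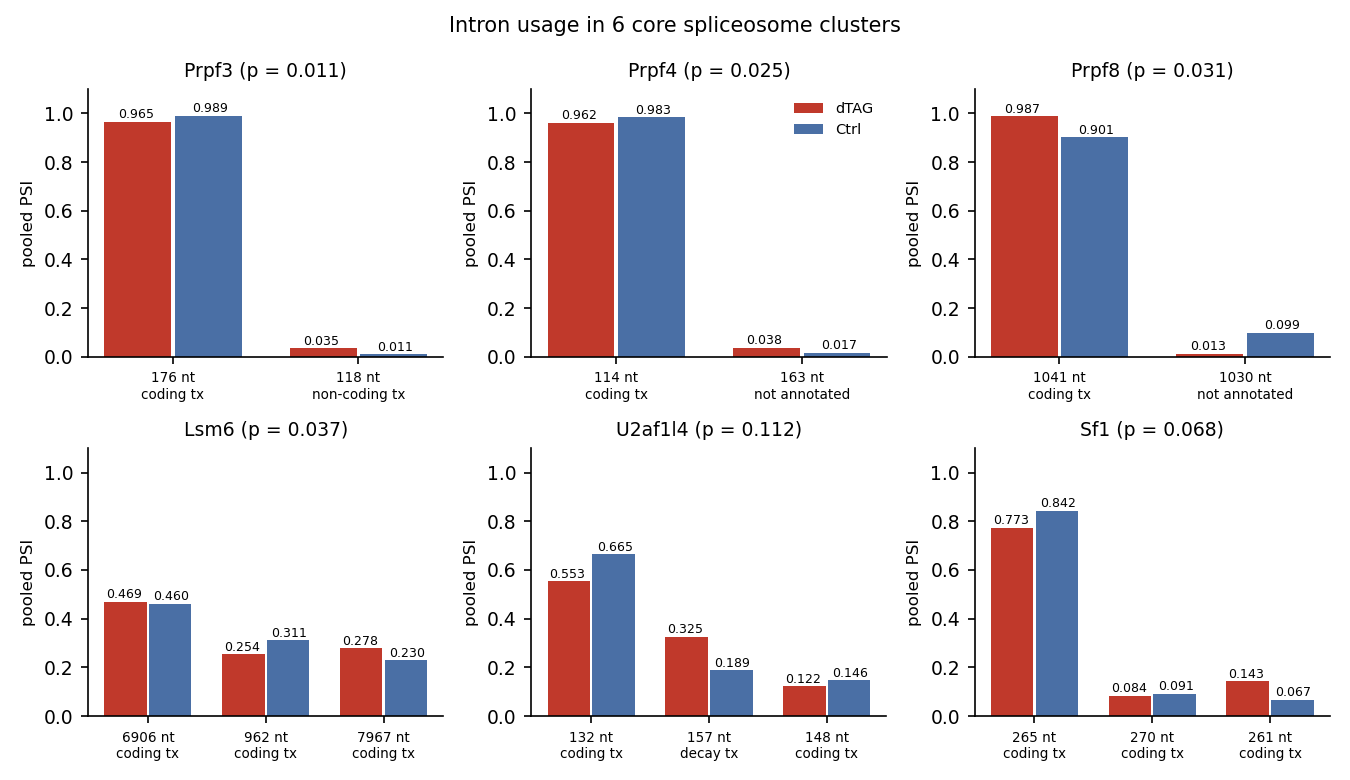
Pooled PSI (y axis, share of the cluster's split reads, from 0 to 1) of each intron of 6 clusters in dTAG (red) and Ctrl (blue) cells, with intron length in nt and the kind of annotated transcript under each pair of bars (tx, transcript); the values are 1 per condition and have no error bars. The Prpf8 site outside the annotation was at 0.0129 in dTAG and 0.0987 in Ctrl cells, and the U2af1l4 intron of decay transcripts was at 0.325 in dTAG and 0.189 in Ctrl cells.

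The tri-snRNP and its partners held 3 of the 4 clusters, among 16 tested in this group, beside 6.84% of all tested clusters. The same 6.84% stands beside the counts of the other role groups. None of the 3 passed adjustment, and whether the role groups differed was not tested. PRPF3 and PRPF4 are partner proteins of the U4/U6 part of the tri-snRNP, and PRPF8 is the large U5 protein that lies at the catalytic centre. In Prpf3, intron 11 of 15 of the transcript Prpf3-201, within the coding region, was spliced to its usual 3′ splice site with a PSI of 0.965 in dTAG and 0.989 in Ctrl cells. The other 3′ splice site lay 58 nt upstream, is annotated in a retained-intron transcript, and was at 0.0350 in dTAG and 0.0107 in Ctrl cells (chi-square p = 0.0112, adjusted p = 0.389). The first AG of the printed sequence is this second site, and it follows a run of pyrimidines. Its odds were 3.37 times those of Ctrl cells, with an approximate 95% interval of 1.32 to 8.60, taken from the likelihood ratio.

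In Prpf4, the 5′ splice site of intron 11 of 13 in the coding region of Prpf4-201 was used with a PSI of 0.962 in dTAG and 0.983 in Ctrl cells. A site 49 nt upstream, inside the exon and outside the annotation, took the remainder, 0.0381 in dTAG and 0.0168 in Ctrl cells (chi-square p = 0.0250, adjusted p = 0.577, odds ratio 2.32, interval 1.11 to 4.83). In other Prpf3 clusters the less used 3′ splice site was at 0.0177 and 0.0364 in dTAG and at 0.0337 and 0.0225 in Ctrl cells (chi-square p = 0.136 and 0.175). In another Prpf4 cluster it was at 0.0524 in dTAG and 0.0335 in Ctrl cells (chi-square p = 0.114). The Prpf3 and Prpf4 clusters with a p of at most 0.05 both had a larger share of the less used site in dTAG cells. Neither of their distances, 58 nor 49 nt, is a multiple of 3.

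The Prpf8 cluster ran the other way. The 3′ splice site of the coding region's intron 37 of 42 (Prpf8-202) was at 0.987 in dTAG and 0.901 in Ctrl cells, and a site 11 nt upstream outside the annotation was at 0.0129 in dTAG and 0.0987 in Ctrl cells (chi-square p = 0.0309, adjusted p = 0.630). The interval of the deltaPSI of the upstream site was -0.0968 to -0.0161, so a difference as small as 0.0161 lay within it. The printed sequence shows both AG dinucleotides after 1 shared pyrimidine-rich stretch. The other 2 Prpf8 clusters had less used sites at low shares: 0.0105 in dTAG and 0.00359 in Ctrl cells for a 5′ splice site 166 nt from the annotated one (chi-square p = 0.0549), and 0.0116 in dTAG and 0.0198 in Ctrl cells for a 3′ splice site 29 nt away (chi-square p = 0.159).

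Of the other tri-snRNP and B complex genes none had a p of at most 0.05. The group had 16 clusters in 7 genes (Prpf3, Prpf4, Prpf8, Prpf31, Prpf38b, Sart3 and Snrnp40), with a median largest absolute deltaPSI of 0.0158. SNRNP40 is a U5 protein and SART3 helps to rebuild the U4/U6 particle. Their less used introns were at 0.0583 in dTAG and 0.0393 in Ctrl cells for Snrnp40 (chi-square p = 0.227) and at 0.0514 in dTAG and 0.0415 in Ctrl cells for Sart3 (chi-square p = 0.478).

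LSM6, a subunit of the ring that holds the 3′ end of U6 RNA, gave the fourth cluster. The junction that skips a 99-nt exon of the 5′ untranslated region had a PSI of 0.278 in dTAG and 0.230 in Ctrl cells. The junction into that exon was at 0.254 in dTAG and 0.311 in Ctrl cells, and the junction out of it at 0.469 in dTAG and 0.460 in Ctrl cells (chi-square p = 0.0370, adjusted p = 0.668). The junctions on the 2 sides of the exon thus had unequal shares in both conditions, and only the upstream one was lower in dTAG cells. Both forms are annotated as protein-coding transcripts (Lsm6-201 and Lsm6-203).

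The LSm group had 12 clusters in 9 genes (Lsm1, Lsm2, Lsm3, Lsm4, Lsm5, Lsm6, Lsm10, Lsm14a and Lsm14b) and a median largest absolute deltaPSI of 0.0179. LSM1 belongs to the cytoplasmic ring of mRNA decay, LSM10 to the U7 snRNP of histone mRNAs, and LSM14A and LSM14B to mRNA granules, so these 4 genes are met by the rule without being subunits of the spliceosome. The Lsm14b cluster of 7 introns had the second largest number of introns of the members. In it, intron 5 of Lsm14b-201 was at 0.358 in dTAG and 0.277 in Ctrl cells and intron 4 at 0.237 in dTAG and 0.276 in Ctrl cells (chi-square p = 0.0710, adjusted p = 0.780). Lsm2 had a p of 0.0680, with its main intron at 0.584 in dTAG and 0.610 in Ctrl cells.

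The largest deltaPSI of all members was in U2af1l4, which encodes a paralog of the small U2AF subunit. The first intron had 2 5′ and 2 3′ splice sites. The form annotated in decay and retained-intron transcripts, with a 3′ splice site 25 nt further downstream, was at 0.325 in dTAG and 0.189 in Ctrl cells, and the main coding form was at 0.553 in dTAG and 0.665 in Ctrl cells. The third form, whose 5′ splice site lies 9 nt further downstream, was at 0.122 in dTAG and 0.146 in Ctrl cells. The test did not pass (chi-square p = 0.112, adjusted p = 0.848). A second cluster of the gene, with 5 introns, had its main intron at 0.463 in dTAG and 0.537 in Ctrl cells (chi-square p = 0.239). Both clusters also carry the name Gm49396, so their reads cannot be given to 1 of the 2 genes.

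Sf1 encodes the protein that first binds the branch site, and with 5 it had the most tested clusters of the 47 genes. Its intron 10 of 13 (Sf1-203) began at either of the GT dinucleotides printed above, 4 nt apart. The upstream GT, joined to the usual 3′ splice site, was at 0.773 in dTAG and 0.842 in Ctrl cells. The downstream GT was at 0.143 in dTAG and 0.0667 in Ctrl cells, and the upstream GT joined to a 3′ splice site 5 nt further on was at 0.0839 in dTAG and 0.0915 in Ctrl cells (chi-square p = 0.0679, adjusted p = 0.776). All 3 forms are in protein-coding transcripts, although 4 and 5 nt both change the reading frame. The choice between its last 3′ splice sites was nearly even, with the nearer one at 0.464 in dTAG and 0.498 in Ctrl cells (chi-square p = 0.555, interval of the deltaPSI -0.146 to 0.0800). The other 3 Sf1 clusters had a largest absolute deltaPSI of at most 0.0158.

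The group of U2, SF3 and branch or 3′ site factors had 22 clusters in 11 genes (Sf1, Sf3a1, Sf3a2, Sf3b1, Sf3b2, Sf3b3, Snrpa1, Snrpb2, U2af1, U2af1l4 and U2af2), 0 of them with a p of at most 0.05, and a median largest absolute deltaPSI of 0.0151. The smallest p was that of Sf3b3, a subunit of the SF3B complex of U2 (chi-square p = 0.0634), whose most changed intron was at 0.0101 in dTAG and 0.00329 in Ctrl cells. In the same Sf3b3 cluster the introns on either side of a 29-nt exon outside the annotation were at 0.158 and 0.158 in dTAG and at 0.159 and 0.159 in Ctrl cells. In Sf3a2, an SF3A subunit, a 5′ splice site outside the annotation, 54 nt upstream of the annotated site of the first intron, was at 0.140 in dTAG and 0.180 in Ctrl cells (chi-square p = 0.293, interval of the deltaPSI -0.0948 to 0.0414).

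**Figure D2:**
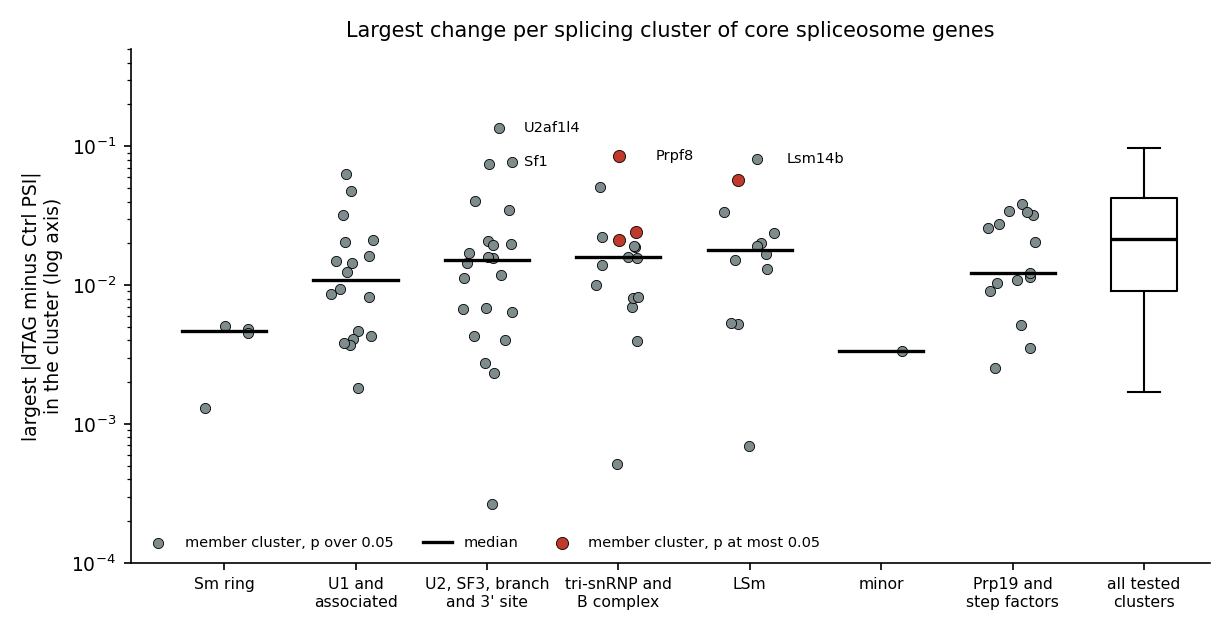
Largest absolute deltaPSI (dTAG minus Ctrl, y axis, log scale) of each of the 88 member clusters by role group, with red for p of at most 0.05 and black lines for group medians; the box on the right shows the median, quartiles and the 5th to 95th percentiles of all 7263 tested clusters. Group medians ran between 0.00333 and 0.0179, all under the 0.0214 of all tested clusters. The lowest is that of the minor spliceosome, with 1 cluster. The most used intron had a Ctrl PSI of at least 0.9 in 51.1% of member clusters, beside 29.1% of all tested clusters.

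U2af1 and U2af2 encode the small and large subunits of U2AF, which reads the 3′ splice site AG and the pyrimidine tract. U2af1, Snrpb, Snrpa and the genes with 3′ splice sites 3 nt apart are described for the structure of their clusters and were picked after their values were seen. U2af1 had the cluster with the most introns, 9, around a pair of 67-nt coding exons that stand in for each other and match at 44 of 67 positions. Both are printed with the flanking AG and GT in capitals.
U2af1 upstream exon, chr17:31652500-31652570, minus strand: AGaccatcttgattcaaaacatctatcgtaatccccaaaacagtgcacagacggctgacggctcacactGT
U2af1 downstream exon, chr17:31651644-31651714, minus strand: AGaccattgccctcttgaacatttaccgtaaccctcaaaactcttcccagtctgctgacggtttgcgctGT
The downstream exon was the main one: the intron into it was at 0.293 in dTAG and 0.30 in Ctrl cells, and the intron out of it at 0.236 in dTAG and 0.222 in Ctrl cells. The intron into the upstream exon was at 0.0656 in dTAG and 0.0635 in Ctrl cells, and the intron out of it at 0.0348 in dTAG and 0.0331 in Ctrl cells. The intron that joins both exons, annotated in decay and processed transcripts, was at 0.0142 in dTAG and 0.0162 in Ctrl cells (chi-square p = 0.395 for the cluster).

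U2af2 had 2 introns with a GC in place of the GT, of 3 such introns among the 240. In its cluster at intron 10 of 11, the GT and GC sites lay 12 nt apart, and the GC site was at 0.179 in dTAG and 0.176 in Ctrl cells (chi-square p = 0.874, interval of the deltaPSI -0.0246 to 0.0328). This was among the 5 smallest differences of clusters in which every intron had a Ctrl PSI of at least 0.1, with Prpf3, Prpf38b, Luc7l and Cwc22.
U2af2 5′ splice sites, chr7:5075222-5075249, plus strand: acgctgGTgagcctcccgGCacgtcatc
Prpf38b 5′ splice sites, chr3:108908316-108908341, minus strand: ggagggGTaagtagaaGTacgtgcat
In Prpf38b, a B complex gene, the sites lay 10 nt apart, and the downstream one, annotated only in a decay transcript, was at 0.248 in dTAG and 0.252 in Ctrl cells (chi-square p = 0.908, interval -0.0648 to 0.0688). Wide intervals such as this one do not show that the conditions were equal.

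Exons and splice sites tied to decay had close shares in both conditions in most clusters. Of the 240 introns, 29 in 20 clusters of 16 genes were annotated in decay transcripts and in no protein-coding transcript of their gene. Their median PSI was 0.0507 in dTAG and 0.0541 in Ctrl cells. The PSI was higher in dTAG cells for 15 and lower for 14, and 25 of the 29 differed by under 0.02. That last count was not made over all tested clusters, and PSI values this low leave little room for a decrease. Of introns annotated in decay transcripts alone, 53.3% of those of members were higher in dTAG cells, beside 54.5% of those in all tested clusters. The exceptions were U2af1l4 (above), Luc7l2, and an intron each in both Prpf39 clusters. None of the 20 clusters had a p of at most 0.05, beside 6.84% of all tested clusters. With only 20 clusters, none is not far from that share. Introns annotated in decay transcripts alone made up 6.25% of member introns, beside 3.88% of all introns in tested clusters.

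**Figure D3:**
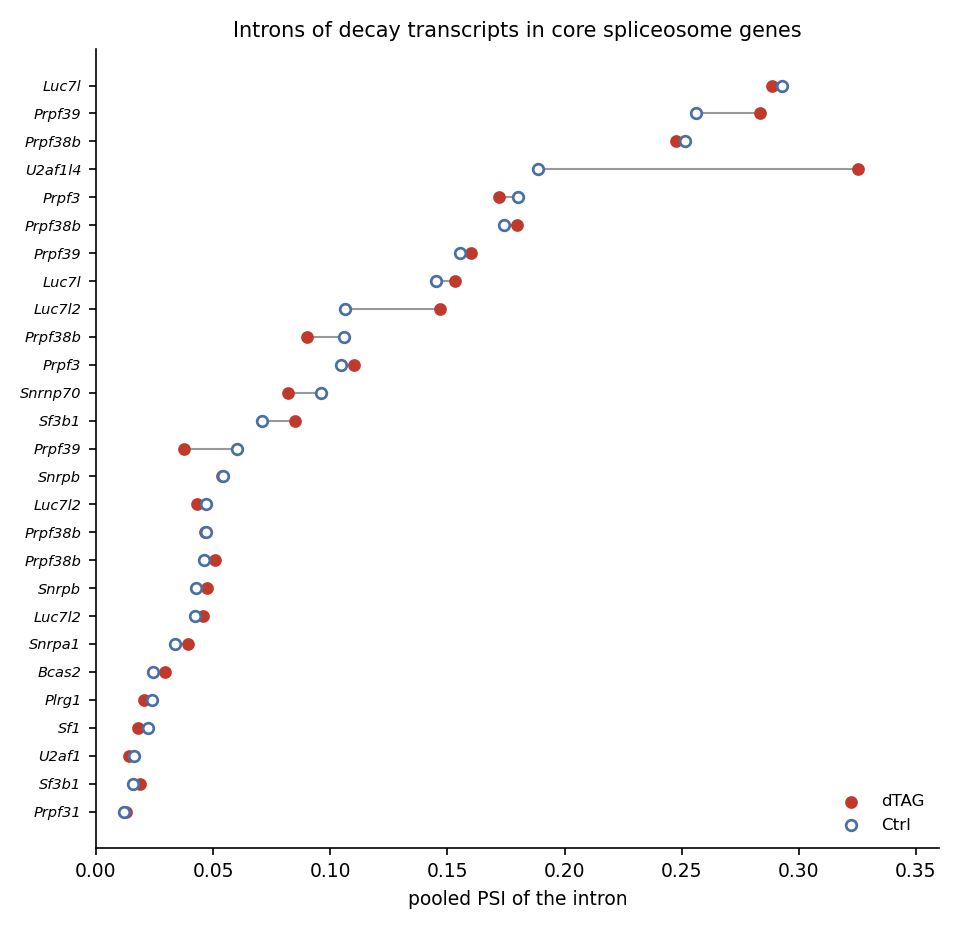
Pooled PSI (x axis) in dTAG (filled red) and Ctrl (open blue) cells of 27 of the 29 member introns annotated in decay transcripts and in no protein-coding transcript of their gene, ordered by Ctrl PSI, with 1 row per intron. The points of 23 of them lie under 0.02 apart, and the U2af1l4 intron is at 0.325 in dTAG and 0.189 in Ctrl cells.

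The LUC7-like proteins bind U1 and take part in the choice of 5′ splice sites. The decay exons of Luc7l and Luc7l2 and the ends of the decay exon of Snrpb are printed because their introns differed by under 0.01. Capitals mark the flanking AG and GT.
Luc7l 71-nt exon, chr17:26253972-26254046, plus strand: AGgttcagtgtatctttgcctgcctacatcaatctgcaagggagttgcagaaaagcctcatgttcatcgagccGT
Luc7l2 47-nt exon, chr6:38571040-38571090, plus strand: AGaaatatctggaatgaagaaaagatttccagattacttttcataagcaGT
Snrpb exon, 3′ splice site before it, chr2:130176747-130176774, minus strand: ggctctcatgttctccccacAGgtgtgt
Snrpb exon, 5′ splice site after it, chr2:130176621-130176634, minus strand: ttcaggGTaagtgc
In Luc7l the introns into and out of the exon were at 0.289 and 0.153 in dTAG and at 0.293 and 0.145 in Ctrl cells, and the skipping intron at 0.558 in dTAG and 0.562 in Ctrl cells (chi-square p = 0.928). In Luc7l2 they were at 0.0431 and 0.0458 in dTAG and at 0.0469 and 0.0423 in Ctrl cells, with skipping at 0.911 in both (chi-square p = 0.957).

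Snrpb encodes the SmB protein, whose level in human cells is known to set the inclusion of such an exon in its own transcript. The introns into and out of the 124-nt mouse exon were at 0.0474 and 0.0538 in dTAG and at 0.0425 and 0.0541 in Ctrl cells, and skipping was at 0.899 in dTAG and 0.903 in Ctrl cells (chi-square p = 0.807). The Sm ring had 4 clusters in 3 genes (Snrpb, Snrpd1 and Snrpn) with the largest absolute deltaPSI at 0.00129 to 0.00508, and its smallest p was 0.767, in Snrpn, which encodes the neuronal SmN and whose 2 clusters also carry the names Snurf or Gm38393.

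U1 and its partners had 18 clusters in 7 genes (Luc7l, Luc7l2, Luc7l3, Prpf39, Snrnp70 and Snrpa among them) and 0 with a p of at most 0.05; their median largest absolute deltaPSI was 0.0109. The largest was in the first intron of Luc7l2, which joins the first exon of Luc7l2-201 to an exon 18601 nt away and was at 0.759 in dTAG and 0.822 in Ctrl cells (chi-square p = 0.156). The introns that enter and leave the stretch between them were at 0.0940 and 0.147 in dTAG and at 0.0712 and 0.106 in Ctrl cells, and that stretch of 13938 nt holds more than 1 exon. A 30-nt exon further along the gene was skipped at 0.303 in dTAG and 0.305 in Ctrl cells (chi-square p = 0.539). In Prpf39, skipping of a 335-nt exon was at 0.801 in dTAG and 0.754 in Ctrl cells (chi-square p = 0.384) and skipping of a 100-nt exon at 0.556 in dTAG and 0.588 in Ctrl cells (chi-square p = 0.836), so the exons differed in opposite directions. In Snrnp70, whose product binds U1 RNA, a decay and retained-intron 3′ splice site was at 0.0818 in dTAG and 0.0962 in Ctrl cells (chi-square p = 0.278).

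Decay exons of 3 more genes had similar values. In Prpf3, skipping of a 96-nt exon was at 0.718 in dTAG and 0.715 in Ctrl cells (chi-square p = 0.913). In Sf3b1, the SF3B subunit at the branch site, skipping of a 56-nt exon was at 0.897 in dTAG and 0.914 in Ctrl cells (chi-square p = 0.313). In Prpf38b, a 53-nt exon was skipped at 0.863 in dTAG and 0.847 in Ctrl cells (chi-square p = 0.780). A second Prpf38b cluster, with the skipping intron at 0.710 in dTAG and 0.659 in Ctrl cells (chi-square p = 0.10), held a further 2 alternative exons. The intron out of the one annotated in a decay transcript was at 0.180 in dTAG and 0.174 in Ctrl cells. The introns into and out of the other, annotated in a processed transcript, differed more. They were at 0.0331 and 0.0267 in dTAG and at 0.0762 and 0.0442 in Ctrl cells.

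The forms of the clusters came in the same order of frequency as in the series, with a smaller share that differed in the 5′ splice site. Of the 88, 34 had the form of a skipped exon (38.6%, beside 33.3% of all tested clusters), 27 differed in the 3′ splice site (30.7%, beside 26.5%), 17 in the 5′ splice site (19.3%, beside 26.3%) and 10 were mixed (11.4%, beside 14.0%). Of the 33 skipped stretches of at most 1000 nt, with a median of 88 nt, 12 had a length that is a multiple of 3. Among those with a skipping PSI of at least 0.5 in Ctrl cells this held for 5 and not for 14. Among the others, called mostly included here, it held for 7 and not for 7. Skipping was higher in dTAG cells in 21 of the 34 clusters and lower in 13, with deltaPSI values between -0.0633 and 0.0480. Many of these differences were small, and the directions were not counted over all tested clusters, so no lean towards skipping is shown.

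Introns outside the annotation differed in both directions. Of 240 member introns 187 (77.9%) were in the GENCODE vM21 annotation, beside 74.7% of all introns in tested clusters. The 53 others had a median PSI of 0.0210 in dTAG and 0.0228 in Ctrl cells, and 23 of them were higher in dTAG cells (43.4%, beside 51.9% of all such introns). The most used intron of the cluster was higher in dTAG cells in 43 of the 88 clusters (48.9%, beside 46.3% of all tested clusters) and lower in 45. Member introns had a median length of 1224 nt, beside 1865 nt.

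Neighbouring sites that differ by only 3 nt formed a set of their own. In 5 clusters the 3′ splice sites lay 3 nt apart, so that the forms differ by 3 nt. Both AG dinucleotides are in capitals.
Cwc22 intron 3, chr2:77932758-77932790, minus strand: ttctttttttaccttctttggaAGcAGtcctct
Cwc22 intron 5, chr2:77929490-77929522, minus strand: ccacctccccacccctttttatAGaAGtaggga
Sf3b2, chr19:5288405-5288437, minus strand: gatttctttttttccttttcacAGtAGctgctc
Luc7l3, chr11:94296072-94296104, minus strand: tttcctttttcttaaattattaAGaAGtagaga
Lsm14a, chr7:34353553-34353585, minus strand: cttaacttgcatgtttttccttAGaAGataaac
Cwc22 encodes a factor that brings the exon junction complex to the spliceosome, and numbering follows Cwc22-201. In its intron 3 the first AG was at 0.352 in dTAG and 0.314 in Ctrl cells (chi-square p = 0.136, interval of the deltaPSI -0.0116 to 0.0918). In its intron 5 the use was reversed, with the second AG at 0.0269 in dTAG and 0.0383 in Ctrl cells (chi-square p = 0.188). The less used AG was at 0.0791 in dTAG and 0.0582 in Ctrl cells in Sf3b2 (chi-square p = 0.377), at 0.0222 in dTAG and 0.0269 in Ctrl cells in Luc7l3 (chi-square p = 0.394) and at 0.0636 in dTAG and 0.0582 in Ctrl cells in Lsm14a (chi-square p = 0.713). It was the second AG in Luc7l3 and Lsm14a and also in Sf3b2.

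At 5′ splice sites, Snrpa, which encodes a U1 protein, had the shortest step.
Snrpa 5′ splice sites, chr7:27195981-27195999, minus strand: gctcagGTgGTgggttccc
The 2 GT dinucleotides lie 3 nt apart at the first intron, in the 5′ untranslated region, and the upstream one was at 0.435 in dTAG and 0.423 in Ctrl cells (chi-square p = 0.598, interval of the deltaPSI -0.0330 to 0.0589). Across the 17 clusters with alternative 5′ splice sites, matches to the 9 bases CAGGTAAGT around the site were counted: the more used site had more matches in 4, as many in 10 and fewer in 3, with a median of 6 for both.

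The Prp19 complex, its related proteins and step factors had 15 clusters in 9 genes (Aqr, Bcas2, Cdc5l, Cwc15, Cwc22, Cwc27, Plrg1, Prpf18 and Prpf19), 0 with a p of at most 0.05 and a median largest absolute deltaPSI of 0.0123. Bcas2, a subunit of the Prp19 complex, had the smallest p of the group (chi-square p = 0.0643, adjusted p = 0.767). The introns into and out of its 51-nt coding exon were at 0.443 and 0.544 in dTAG and at 0.477 and 0.510 in Ctrl cells, while skipping of the exon was at 0.0136 in both. The difference thus lay between the 2 introns that flank the exon. In Cdc5l a 3′ splice site outside the annotation, 49 nt away, was at 0.0223 in dTAG and 0.0114 in Ctrl cells (chi-square p = 0.0821), and in Prpf18, a step factor, a site 20 nt away was at 0.0238 in dTAG and 0.0496 in Ctrl cells (chi-square p = 0.110).

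Flanking introns were unequal in several of the mostly included exons, in both conditions. In Sf3b3 the introns into and out of a 206-nt exon were at 0.297 and 0.697 in dTAG and at 0.30 and 0.696 in Ctrl cells (chi-square p = 0.728), and those of a 113-nt exon at 0.365 and 0.630 in dTAG and at 0.354 and 0.641 in Ctrl cells (chi-square p = 0.865). In Aqr, which encodes the intron-binding helicase Aquarius, they were at 0.361 and 0.599 in dTAG and at 0.339 and 0.626 in Ctrl cells (chi-square p = 0.496). The minor spliceosome had 1 cluster, in Snrnp48, a protein of the U11/U12 particle. Its introns into and out of a stretch of 8 nt were at 0.773 and 0.0581 in dTAG and at 0.775 and 0.0598 in Ctrl cells. Skipping was at 0.169 in dTAG and 0.165 in Ctrl cells (chi-square p = 0.991). The intron into the stretch is annotated only in processed and retained-intron transcripts, and the intron out of it is not annotated. Transcripts that enter it need not leave after 8 nt, so an included exon of 8 nt is not shown.

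**Figure D4:**
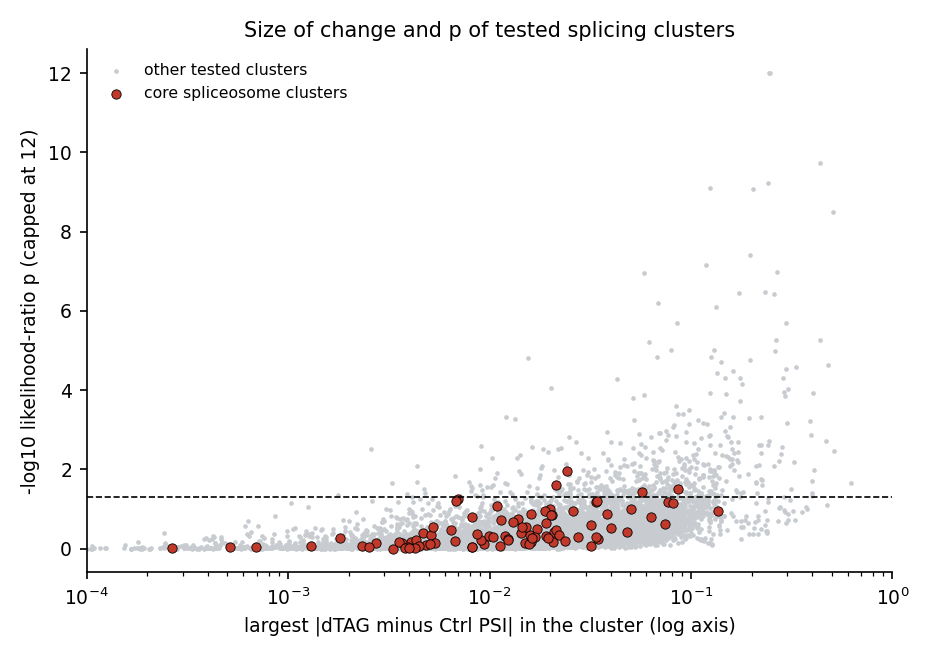
Minus log10 of the likelihood-ratio p (y axis) against the largest absolute deltaPSI of the cluster (x axis, log scale) for the 88 member clusters (red) and the other tested clusters (grey), with a dashed line at a p of 0.05. Of the members 4 lie above the line, the highest at chi-square p = 0.0112 (Prpf3).

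How large a difference the clusters with 2 introns could hold was read from the likelihood ratio. For the less used intron of 42 such clusters the approximate 95% interval of the deltaPSI was taken. It lay within 0.05 of 0 on either side in 25 and within 0.1 in 40. It left out 0 in 3 (Prpf3, Prpf4 and Prpf8). The interval is built from the likelihood ratio, so it leaves out 0 whenever p is under 0.05 and adds no further evidence. The median width was 0.0554. The less used intron was higher in dTAG cells in 22 and lower in 20, and it was under 0.05 in both conditions in 21.

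**Figure D5:**
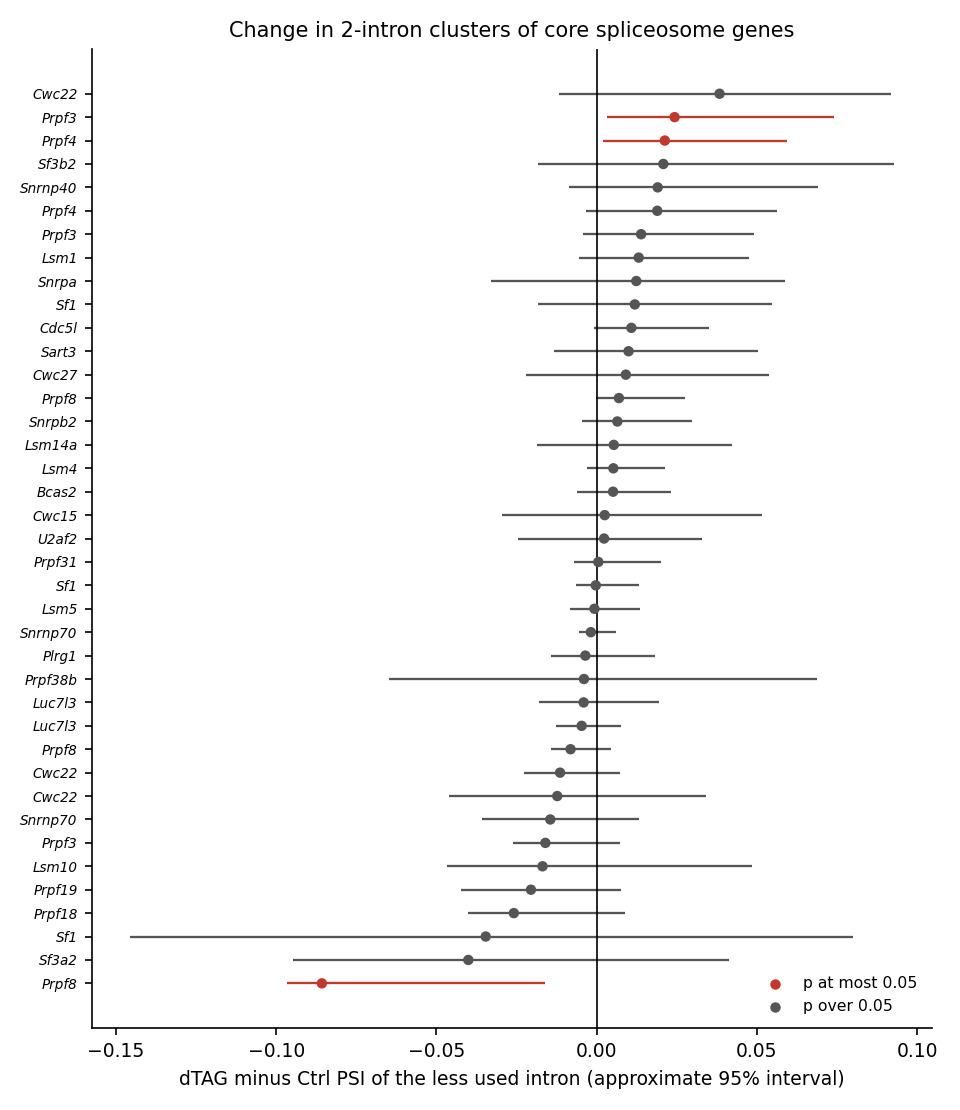
DeltaPSI (dTAG minus Ctrl, x axis) of the less used intron in 39 of the 42 member clusters with 2 introns, with approximate 95% intervals from the likelihood ratio, ordered by deltaPSI, 1 row per cluster and red for p of at most 0.05. The intervals of 38 of them lie within 0.1 of 0, and 3 leave out 0, by construction the 3 in red.

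Other spliceosome genes were counted beside these from a list of 64, of which 36 had 69 tested clusters. A p of at most 0.05 was found for 4 clusters (5.80%, beside 6.84% of all tested clusters), in Tial1, Usp39, Dhx16 and Wbp11. LeafCutter's likelihood-ratio test gave 0 with an adjusted p under 0.2 (1.58% of all tested clusters). The smallest adjusted p of the 4 was 0.463, in Tial1. The median largest absolute deltaPSI was 0.0143, beside 0.0141 for the 88 clusters above. For Tial1, a U-rich RNA binding protein that helps U1, the main intron was at 0.962 in dTAG and 0.919 in Ctrl cells (chi-square p = 0.0159). For Usp39, a tri-snRNP protein, a 5′ splice site outside the annotation was at 0.0486 in dTAG and 0.0234 in Ctrl cells (chi-square p = 0.0293). In Dhx16, a helicase that acts before the first step, the most changed intron was at 0.0165 in dTAG and 0.0337 in Ctrl cells (chi-square p = 0.0412), and in Wbp11, a PQBP1 partner, at 0.552 in dTAG and 0.570 in Ctrl cells (chi-square p = 0.0432).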

How the data were processed

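The authors aligned 4sU-seq reads to mm10 with STAR 2.5.2b, kept uniquely mapped reads and ran LeafCutter on the dTAG and Ctrl libraries. The deposited tables hold, per cluster, a log-likelihood ratio (a score) and its degrees of freedom, and, per intron, the PSI of each condition as a fraction fitted over its libraries. The authors' p-values, adjusted p-values, effects and deltaPSI were not used. P was recomputed from the ratio by the chi-square distribution and adjusted by Benjamini-Hochberg over 7263 tested clusters (Python 3.11.15, scipy 1.17.1), and deltaPSI was dTAG minus Ctrl. Deposited junction ends are exon bases; intron coordinates here are 1 base further in. Introns were matched to GENCODE vM21. For 2-intron clusters the standard error of the log odds ratio was its size over the root of the likelihood-ratio statistic. On simulated data such intervals were slightly narrow. The PSI values set in the simulation lay above 0.05, and only no change or a rise was simulated. The intervals were thus not checked for the 21 of the 42 less used introns under 0.05, nor for falls. Those of the Prpf3, Prpf4 and Prpf8 clusters with a p of at most 0.05 lie outside the simulated settings. So do those of some less used introns just above 0.05. Genes named were those with p of at most 0.05, the 10 largest deltaPSI, the smallest p of each role group, decay introns with PSI of at least 0.05 and the 5 smallest changes. Others were picked after their values were seen. Members and lists were chosen with earlier results of these data known. Alignment of Cast reads to mm10 can lower their counts; this was not tested. Single values of 1 gene are not reported here, and its rows were left out of the plots by intron.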

Additional observations from a re-analysis of the deposited data

How the results depend on the processing

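No paired analysis was possible because the tables hold no value per library, and for the same reason no replicate could be left out. Of the 4 clusters with a p of at most 0.05, 0 passed an adjusted p under 0.2 or under 0.05, and 0 also had a deltaPSI of at least 0.1. Leaving out clusters with several gene names or introns under a PSI of 0.01 could not change this count, since none of the 4 has either and p could not be refitted without counts. Multiplying the best p of a gene by its number of clusters left 2 of 4 genes, Prpf3 and Lsm6. Benjamini-Yekutieli adjustment gave 0 clusters under 0.2, as Benjamini-Hochberg did. The median largest absolute deltaPSI of 0.0141 was between 0.0131 and 0.0142 under the 3 alternatives run. A difference of logits has the sign of the deltaPSI by construction and tests nothing. Depth is unknown, so how far it limits each PSI is too.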
